A study of Mus musculus with 4 samples.

Results

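Aqp2, Hsd11b2, Car2 and Adcy6, 4 genes with roles in water and acid-base handling by the renal collecting duct, were followed across the 4 arrays of a mouse kidney cortex study. The members were the probes whose gene symbol in the platform's table is one of these names, which gave 1 probe per gene, so 4 probes of 10032 gene probes and 4 genes of 9070 with a symbol. The genes were picked with their values on these arrays known, so those values are a description and no test was made of them.

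The study profiled the renal cortex of male mice on a C57BL/6J background, aged 20 weeks, on one-colour CodeLink bioarrays. ND-WT was nondiabetic ICAM-1+/+ mice given citrate buffer alone, and DM-WT was ICAM-1+/+ mice made diabetic by 1 intraperitoneal dose of streptozotocin, a toxin of pancreatic beta cells, at 200 mg/kg in citrate buffer. ND-KO and DM-KO were ICAM-1-/- mice, which lack a leukocyte adhesion molecule in every cell, treated in the same 2 ways. Injections were given at 8 weeks of age, kidneys were taken 12 weeks later, and diabetic mice had to exceed a blood glucose of 16 mmol/L. Each group had 5 mice by the labels and 1 array, and whether that array carried pooled RNA or RNA of 1 mouse is not stated. There was therefore no replicate, a difference between arrays has no check against the spread between mice, and no p-value is given. The Icam1 transcript was not analysed here, which leaves the genotypes as labelled, without a check.

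In the collecting duct, vasopressin binds its receptor on principal cells, adenylyl cyclase makes cyclic AMP, and protein kinase A then drives water channels into the apical membrane and raises transcription of the water channel gene. Aqp2 encodes that channel, and loss of its function causes nephrogenic diabetes insipidus. Adcy6 encodes an adenylyl cyclase through which vasopressin acts in these cells, although other segments and cell types also carry it. Hsd11b2 encodes the enzyme that inactivates corticosterone in aldosterone-responsive cells and so keeps glucocorticoid off the mineralocorticoid receptor. Car2 encodes cytosolic carbonic anhydrase, which supplies protons and bicarbonate in intercalated cells, and it is also abundant in proximal tubule and red cells. Diabetes brings an osmotic diuresis, in which the duct meets a high flow of glucose-rich fluid.

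Because Aqp2 is the gene with the clearest difference below, the 250 bases before its transcription start are shown (RefSeq, GRCm38.p6, chr15:99578806-99579055, plus strand, 5′ to 3′). Capitals mark the letters CGTCA, the half-site of a cyclic AMP response element, and GATA, which reads TATC when it lies on the other strand.
Aqp2: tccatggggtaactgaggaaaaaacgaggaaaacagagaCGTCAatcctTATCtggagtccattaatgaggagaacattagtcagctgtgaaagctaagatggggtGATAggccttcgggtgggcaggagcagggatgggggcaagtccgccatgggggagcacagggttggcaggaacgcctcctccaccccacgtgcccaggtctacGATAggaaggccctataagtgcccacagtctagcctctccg
The half-site began at position -211, counted back from the base before the start at -1, and the GATA letters at -201, -144 and -41, with no overlap between the motifs. Searched on both strands, CGTCA was present in 17.8% and GATA in 53.6% of 32851 promoter windows of the same length. The full element, TGACGTCA, was not among these letters and was in 1.55% of windows. Such matches describe the sequence and do not show binding.

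Between 62.8% and 66.2% of gene probes gave a usable spot per array, and all 4 members did on every array. Across genes, which are not replicates, arrays correlated at 0.983 to 0.994, and the lowest values involved DM-WT. Values are log2 normalized intensities, computed after adding an offset of 50, which shrinks differences of dim spots. Bacterial control probes spotted several times gave an SD between spots of 1 probe of 0.0638 to 0.0713 for a log2 difference between 2 arrays, which covers printing and reading error and no difference between mice. The spots used lay outside columns 44 to 48 of the upper block and had a mean log2 intensity above 7. The SD therefore leaves out error at that edge and of dimmer spots. DM-WT also had dim spots at the right edge of the upper print block. In columns 44 to 48 of its rows 1 to 15, 10 of 13 bright probes, meaning those usable on the other arrays with a mean log2 intensity above 7, were at least 2-fold below the mean of the other arrays, with a median log2 difference of -1.40. Over all rows of column 48, the last column of that block, 21 of 37 bright probes were at least 2-fold lower, with a median of -1.61. Over all rows of columns 44 to 48 the median was -0.03.

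No member lay in columns 44 to 48 of the upper block. Adcy6 was printed beside them, in the upper block at row 4, column 43. Its nearest usable spot in the column, Cd79a in row 5, differed by -0.52 between DM-WT and ND-WT on the log2 scale, with values of 7.32 and 7.84, while Lag3 in row 6 differed by 0.13. Over the 40 bright probes of that column the median difference of DM-WT from the other arrays was -0.02, and over the 6 in its rows 1 to 15 it was 0.07. Only 1 of 9 bright probes within 20 rows of Adcy6 in the column was as low as Adcy6 on DM-WT. Car2 lay in the other block, the lower one, at row 9 of column 48, the last column. All 4 usable spots within 5 rows of it in that column were lower on DM-WT than on ND-WT, with a median log2 difference of -0.54, Bmp6 being at -0.86, Furin at -0.62, Ugdh at -0.46 and Tiam2 at -0.08. Between DM-KO and ND-KO 3 of these 4 were above 0, with a median of 0.25. The 10 bright probes in rows 1 to 30 of the column had a median of -0.37 on DM-WT against the other arrays, while all 27 of the column had -0.06, with 1 of them at least 1.5-fold lower. Within 5 rows and 5 columns, the bright neighbours had medians on DM-WT of 0.005 for Car2 (26 probes, 3 as low as Car2), -0.09 for Adcy6 (18 probes, 6 as low), 0.06 for Aqp2 (51 probes, around row 21 and column 30 of the lower block) and -0.02 for Hsd11b2 (44 probes, around row 92 and column 16 of the upper block). By this wider measure the surroundings of Car2 were near 0, as those of Aqp2 and Hsd11b2 were. In its own column within 5 rows, however, 6 of 7 usable spots near Hsd11b2 were below 0 in DM-WT minus ND-WT, with a median of -0.15, while the 4 near Aqp2 lay at 0.02 to 0.19. These neighbours were chosen for their position after their values were seen. The part of print position in the DM-WT values was not tested.

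**Figure D1:**
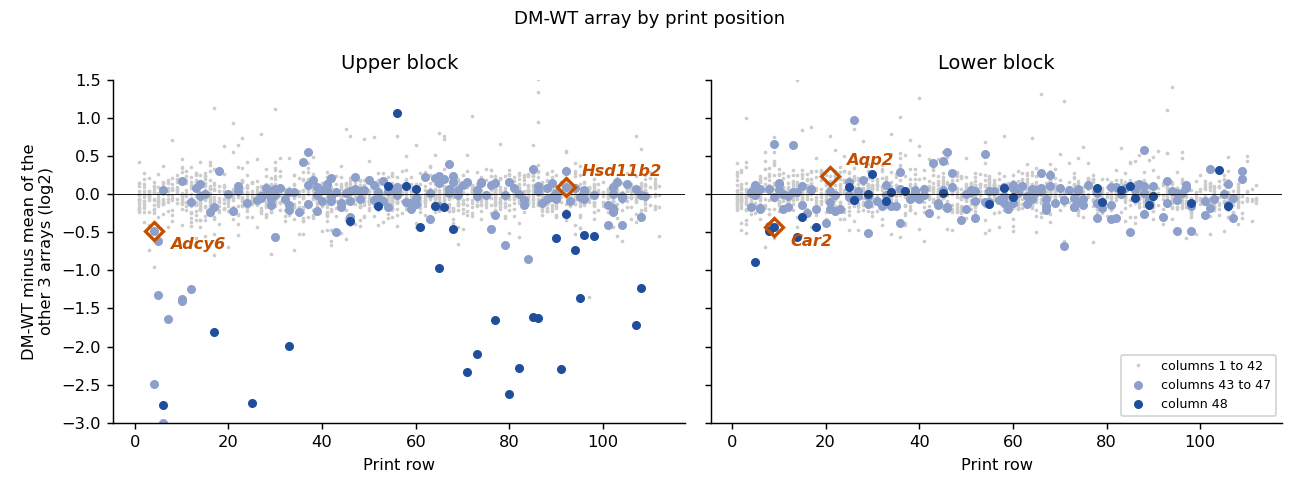
Log2 intensity on DM-WT minus the mean of the other 3 arrays for bright gene probes against print row, in the upper and the lower block, with the last 6 columns coloured and the members as open diamonds. Adcy6 and Car2 sit low, with some low and some unremarkable spots of the right-hand columns near them, Aqp2 and Hsd11b2 lie among spots near 0, and 7 spots fall below the axis.

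Aqp2 was higher on the diabetic array of each genotype, and most clearly without ICAM-1. Its log2 intensity was 10.06 without and 10.35 with diabetes in WT, and 9.69 without and 10.59 with diabetes in KO. The order was thus DM-KO, DM-WT, ND-WT and ND-KO, and each step of it exceeded the SD between spots. Between DM-KO and ND-KO the difference was 0.91, or 1.87-fold, the 12th highest of 6339 genes measured on both arrays. It was the only member at least 1.5-fold different there, except that Adcy6 also was, at 0.61, with an offset of 16. In that comparison 0.536% of genes were that much higher, 0.505% that much lower and 1.04% either. Between DM-WT and ND-WT the difference was 0.30, or 1.23-fold, rank 395 of 6055, and it was 0.05 when arrays were scaled by their medians. None of the 4 members reached 1.5-fold in that comparison, in which 1.75% of genes were that much higher, 0.859% that much lower and 2.61% either. Adcy6 and Car2 lay just inside the limit, and Adcy6 passed it under 5 of 6 alternative settings, at -0.59 to -0.74, and Car2 under 2, at -0.71 and -0.80. The 6 include leaving out the filter on dim probes, which could not move a member. No member reached 2-fold in any comparison, as 0.595% of genes did in DM-WT minus ND-WT, 0.189% in DM-KO minus ND-KO, 0.425% in DM-KO minus DM-WT and 0.0799% in ND-KO minus ND-WT. In the authors' deposited table Aqp2 stood at 25.1 and 28.0 in WT and at 18.7 and 32.1 in KO, without and with diabetes, a ratio of 1.12 in WT and 1.72 in KO. In bulk cortex, more duct cells and more RNA per cell cannot be told apart.

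ND-KO was the lowest of the 4 arrays for Aqp2. Between the genotypes the difference was -0.37 for ND-KO minus ND-WT and 0.24 for DM-KO minus DM-WT. The comparison of DM-KO with ND-KO and that of ND-KO with ND-WT share the ND-KO array, so a low spot there would move both. The 52 bright probes printed around Aqp2 had a median of 0.01 on ND-KO against the other arrays, and none was as low as Aqp2 at -0.65. Neighbours cannot show a fault of the Aqp2 spot alone, and the part of that spot in these differences was not tested.

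**Figure D2:**
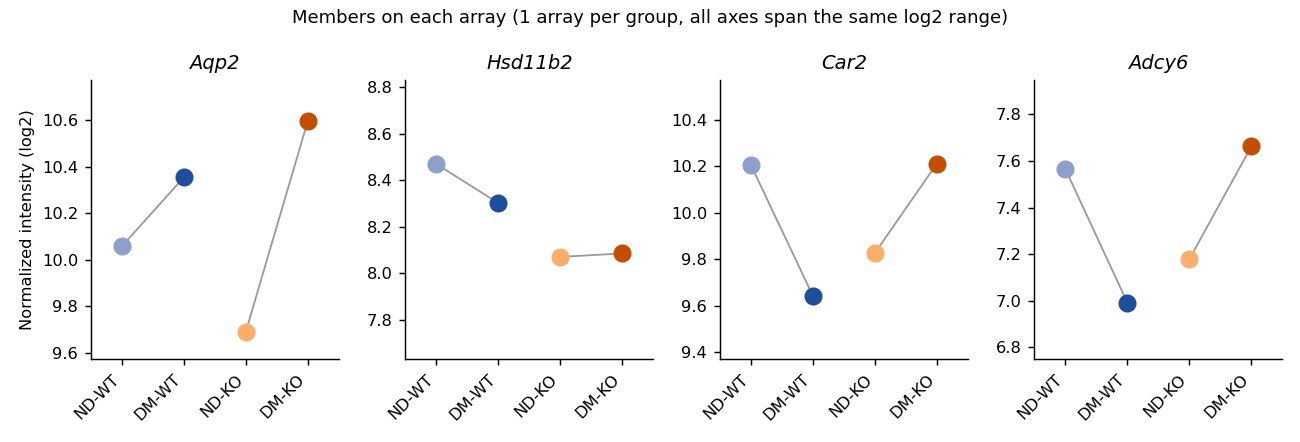
Log2 normalized intensity of each member on the 4 arrays, with 1 point per array, lines joining the nondiabetic and diabetic array of a genotype, and every axis spanning the same log2 range. Aqp2 is highest on DM-KO, Hsd11b2 on ND-WT, and Car2 and Adcy6 are lowest on DM-WT.

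Hsd11b2 differed least with diabetes in KO and was lower on both KO arrays than on the WT arrays. Without and with diabetes its log2 intensity was 8.47 and 8.30 in WT, and 8.07 and 8.09 in KO. Both arrays of ICAM-1+/+ mice were above both arrays of ICAM-1-/- mice. The 2 ICAM-1-/- arrays differed by 0.01, within the SD between spots and of either sign over the alternative settings, from -0.03 to 0.02. DM-WT minus ND-WT was -0.17, close to the median of its print neighbours given above, and the part of print position in it was not tested. The genotype difference was -0.40 in nondiabetic mice, the 69th lowest of 6258 genes, and -0.22 in diabetic mice. Under median scaling the last value was -0.10 and that of DM-WT minus ND-WT was -0.31.

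Car2 and Adcy6 had almost the same profile over the arrays. Car2 stood at 10.21 without and 9.64 with diabetes in WT, and at 9.83 and 10.21 in KO. ND-WT and DM-KO were thus level at 2 decimals, with both other arrays below. Adcy6 stood at 7.56 and 6.99 in WT, and at 7.18 and 7.66 in KO. For both genes DM-WT was the lowest array.

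With diabetes, Car2 differed by -0.56 in WT and 0.38 in KO, rank 63 from the lowest of 6055 and rank 118 from the highest of 6339. Adcy6 differed by -0.57 in WT and 0.48 in KO. Between the diabetic arrays, DM-KO exceeded DM-WT by 0.57 for Car2 and by 0.67, or 1.59-fold, for Adcy6. Adcy6 was past 1.5-fold there, and Car2, just short of it, passed it under 3 of the same 6 alternative settings, at 0.59 to 0.69. In that comparison 0.769% of 6111 genes were that much higher, 1.06% that much lower and 1.83% either. In the authors' deposited table, which has no offset, the ratio of DM-WT to ND-WT was 0.599 for Car2 and 0.539 for Adcy6, and that of DM-KO to ND-KO was 1.197 and 1.57. The difference with diabetes in KO minus that in WT was 0.95 for Car2 and 1.06 for Adcy6, against 0.61 for Aqp2 and 0.18 for Hsd11b2. Ranked by that value among 5914 genes measured on all arrays, Adcy6 was 9th, Car2 10th, Aqp2 30th and Hsd11b2 729th. Of the 30 highest genes, 18 were printed in column 43 or further right, where 10.7% of the 5914 genes lay. Aqp2 was not among these 18.

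One comparison uses neither the DM-WT array nor streptozotocin, that of the nondiabetic genotypes, and there the members stood together. Aqp2, Hsd11b2, Car2 and Adcy6 were lower on ND-KO than on ND-WT by log2 differences of -0.37, -0.40, -0.38 and -0.39, or 1.29-fold to 1.32-fold. They ranked 85th, 69th, 79th and 74th from the lowest of 6258 genes. None reached 1.5-fold, where 0.176% of genes were that much higher, 0.431% that much lower and 0.607% either. With the DM-WT array left out of the normalization, the 4 differences were -0.36 for Aqp2, -0.405 for Hsd11b2, -0.37 for Car2 and -0.39 for Adcy6.

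**Figure D3:**
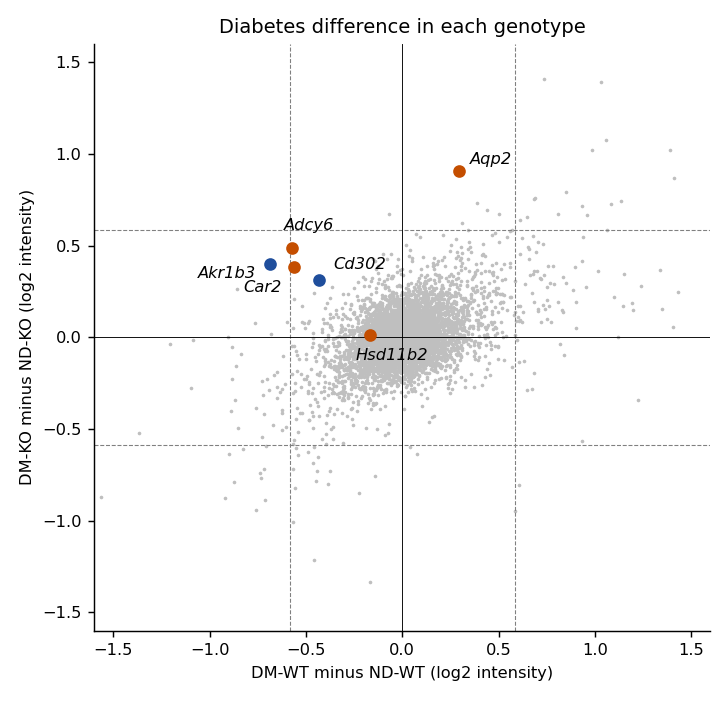
Difference in log2 intensity between the diabetic and nondiabetic array in ICAM-1+/+ mice (horizontal) and in ICAM-1-/- mice (vertical) for 5903 genes, with 11 outside the axes, dashed lines at 1.5-fold, members in orange and 2 genes of like pattern in blue. Aqp2 lies high on the vertical axis, Car2 and Adcy6 lie to the upper left with Akr1b3 and Cd302, and Hsd11b2 lies near the centre.

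Likeness of pattern was measured as the distance between log2 values centred on each gene's mean over the 4 arrays, among 5443 genes with a symbol measured on all of them. Car2 and Adcy6 were each other's nearest gene, at a distance of 0.0866. Akr1b3, which encodes aldose reductase, the enzyme that turns glucose into sorbitol, came next for both, at 0.0873 from Car2 and 0.109 from Adcy6. Akr1b3 stood at 9.69 without and 9.003 with diabetes in WT, and at 9.24 and 9.64 in KO, and was printed in column 34 of the upper block, away from the edge. Cd302, in column 10, was the third for both. The part of print position in the Car2 and Adcy6 pattern was not tested. Nearest to Hsd11b2 were Fmnl1, Cpsf6 and Srsf6, at 0.0325 to 0.0573. Aqp2 had no close counterpart, as Folh1, Serpine2 and Pkm lay at 0.282 to 0.297. With 4 arrays, such distances only describe these arrays.

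Of the genes nearest Aqp2 on its chromosome with a probe, 1 was measured. Aqp5, the next annotated gene and another water channel, was dim and stood at 6.41 and 6.45 in WT, and at 6.44 and 6.34 in KO. Faim2, the nearest gene with a probe on the other side, was not well above background on any array. Adcy6 is on the same chromosome, 52 annotated genes from Aqp2.

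The collecting duct label was checked against marker genes other than the members. Of 16 principal cell markers with a probe, 15 were measured on at least 1 array and 12 on all 4, including the vasopressin receptor Avpr2, the basolateral water channel Aqp3, and Scnn1b and Scnn1g, subunits of the epithelial sodium channel. Elf5, a transcription factor, was not well above background on any array. Of 6 intercalated cell markers with a probe, 5 were measured on all arrays, including the chloride-bicarbonate exchanger Slc26a4, the regulator Foxi1 and the ammonia channel Rhcg. Duct RNA was thus present on every array, although Car2 and Adcy6 are not confined to the duct.

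Principal cell markers were mostly higher with diabetes, by less than Aqp2 in KO. On DM-KO 11 of 12 measured on both arrays were above ND-KO, with a median log2 difference of 0.15, beside -0.01 and 47.8% above 0 over all genes. On DM-WT 10 of 14 were above ND-WT, with a median of 0.11, beside 0.00 and 50.1% over all genes. Their summed intensity went from 3024 on ND-WT to 3323 on DM-WT and from 2859 on ND-KO to 3169 on DM-KO. Krt18, an epithelial keratin, differed most, by 0.56 in WT and 0.38 in KO. None reached 1.5-fold in any of the 4 comparisons, in which 0.607% to 2.61% of all genes did. On ND-KO 2 of 12 were above ND-WT, beside 50.7% over all genes, and the median was -0.10. The markers thus lay on the same side of 0 as the members there. Without and with diabetes, Avpr2 itself stood at 7.34 and 7.44 in WT, and at 7.28 and 7.49 in KO. Aqp3 stood at 8.88 and 8.84 in WT, and at 8.78 and 8.93 in KO. The water channel Aqp4 stood at 6.65 on DM-KO, 1.46-fold above its ND-KO reading of 6.10, which was not well above background.

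**Figure D4:**
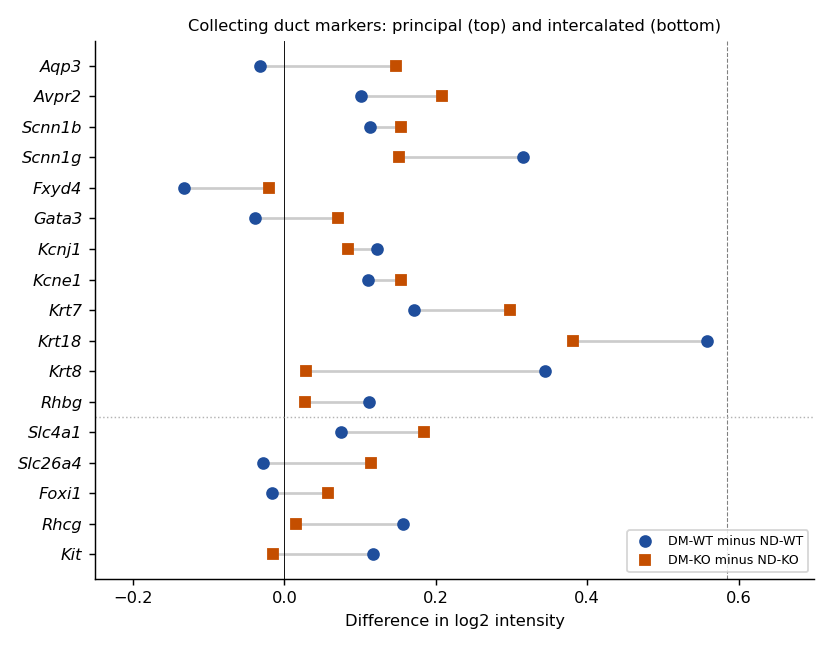
Difference in log2 intensity with diabetes for collecting duct markers measured on all 4 arrays, in ICAM-1+/+ mice (circles) and ICAM-1-/- mice (squares), with a dashed line at 1.5-fold. Most principal cell markers lie above 0 in both genotypes and none passes 1.5-fold, Krt18 coming nearest at 0.56 in WT.

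Markers of medulla, thin limb and osmolyte handling, which a cortex dissection may include, were mostly higher with diabetes in KO, as Aqp2 was, and less so in WT. Of 10 measured on both KO arrays 9 were above 0, beside 47.8% over all genes, with a median of 0.15. Among these markers was the small heat shock protein Cryab at 0.46. Over the 9 measured on all arrays, their summed intensity was 2012 and 1848 in WT, and 1732 and 2163 in KO. ND-KO was thus lowest and DM-KO highest, as for Aqp2. DM-WT was below ND-WT in this sum, a drop that came from Akr1b3. Akr1b3 was the brightest of these genes, at 9.69 on ND-WT and 9.003 on DM-WT. At 9.24 on ND-KO and 9.64 on DM-KO, it weighed on the sum in KO as well. In WT 6 of 9 were above 0, beside 50.1% over all genes, with a median of 0.04, and Akr1b3, 1 of these 9 genes, was at -0.68. The urea transporter Slc14a2, which marks the inner medulla, was near background at 6.09 to 6.18 and not well above it on DM-WT. The part of tissue dissected in the Aqp2 values was not tested.

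Intercalated cell markers showed smaller differences, with medians of 0.07 in WT and 0.06 in KO, and none reached 1.5-fold. Over all genes 2.61% did in WT and 1.04% in KO. Slc26a4 stood at 8.21 and 8.18 in WT, and at 7.98 and 8.09 in KO, without and with diabetes. Rhcg stood at 8.49 and 8.64 in WT, and at 8.24 and 8.25 in KO. Red cells carry Car2, and 5 of 8 red cell markers on the array were measured on all arrays. Their summed intensity was 577 and 763 in WT, and 637 and 701 in KO. The sum was therefore highest on DM-WT, the array on which Car2 was lowest. Among its genes only Tfrc and Alas2 were highest there, at 0.66 and 0.57 above ND-WT. Slc4a1 and Car1 were higher on DM-KO than on DM-WT, and Epb42 was lowest on DM-WT, at -0.12 against ND-WT. Hba-a1, the brightest red cell marker on the other arrays, had no usable spot on DM-WT and was not in the sum. Car1, the other carbonic anhydrase of red cells, stood at 6.75 and 6.93 in WT, and at 7.03 on both KO arrays. The part of blood in the Car2 values was not tested. Proximal tubule markers, 18 of 18 measured, had medians of -0.08 in WT and -0.14 in KO. Thick limb markers had medians of -0.02 and 0.03. Distal convoluted and connecting tubule markers, whose connecting segment also carries Aqp2, were higher with diabetes in both genotypes, with medians of 0.61 over 4 genes in WT and 0.36 over 3 in KO and Calb1, a calcium-binding protein, at 0.93 and 0.72. Of podocyte markers, only Actn4 was measured on all arrays, at 0.11 and 0.24.

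Other genes of the pathways, from lists without the members, were mostly within 1.5-fold, as were genes in general. Over all genes 2.61% were past it with diabetes in WT and 1.04% in KO. In the vasopressin, cyclic AMP and water list, 0 of 28 genes measured on both WT arrays and 0 of 27 on both KO arrays passed it, with medians of 0.06 and 0.07. In KO 22 of these 27 were above 0, beside 47.8% over all genes. Aqp1, the water channel of proximal tubule and thin limb, differed by 0.34 in KO and by -0.05 in WT. Aqp11, an intracellular aquaporin of proximal tubule, was lower with diabetes in both genotypes, at -0.41 and -0.33. Akap12, an anchoring protein for protein kinase A, was 0.52 higher in WT and 0.19 in KO, and the G protein subunit Gnai2 was 0.09 and 0.30 higher. Prkar1a, a regulatory subunit of protein kinase A, was 0.21 and 0.24 higher, and the catalytic subunit Prkaca stood at -0.28 and 0.04. Of other adenylyl cyclases, Adcy7 was at -0.28 and -0.20, and Adcy9 was not well above background on either diabetic array.

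In the mineralocorticoid and distal sodium and potassium list, 1 of 19 genes was past 1.5-fold in WT and 0 of 21 in KO. The one was Sgk1, the corticosteroid-induced kinase that keeps sodium channels at the membrane, at 8.78 without and 10.18 with diabetes in WT, and 8.03 and 8.09 in KO. Sgk1 was thus 2.65-fold higher with diabetes in WT and 1.04-fold in KO. Over all genes 2.61% were past 1.5-fold in WT and 1.04% in KO. Tsc22d3, another corticosteroid target, stood at 10.18 and 10.10 in WT, and at 9.48 and 8.95 in KO. Sgk1 and Tsc22d3 were the 2 genes of the list past 1.5-fold between genotypes, at -0.74 and -0.70 for ND-KO minus ND-WT and at -2.09 and -1.15 for DM-KO minus DM-WT. Over all genes 0.607% and 1.83% were past it in these comparisons. Fkbp5, a glucocorticoid target, was at -0.36 and -0.53 in the same comparisons. Hsd11b2 was likewise lower on both KO arrays. The channel subunits Scnn1a, Scnn1b and Scnn1g were 0.20, 0.11 and 0.32 higher with diabetes in WT and 0.19, 0.15 and 0.15 higher in KO. The sodium chloride cotransporter Slc12a3 was 0.53 and 0.32 higher, and Usp2, a deubiquitinase, stood at -0.07 and -0.47.

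In the acid-base and ammonia list, 34 genes were measured on all arrays, with medians of 0.12 in WT and 0.04 in KO. Car15, a membrane-bound carbonic anhydrase, was 0.50 higher in WT and 0.67 higher in KO, where it was the only gene past 1.5-fold. Car3, which is also an adipocyte and muscle gene, was the only one past it in WT, at -0.85, with -0.49 in KO. Over all genes 2.61% were past it in WT and 1.04% in KO. The other adipocyte markers measured on all arrays went both ways. Lpl was at -0.46 in WT and -1.22 in KO, Fabp4 at 0.62 and 0.09, and Lipe at 0.12 and 0.05. Car4, the membrane-bound carbonic anhydrase of proximal tubule, was lower in both genotypes, at -0.28 and -0.31, and Car13 was 0.41 and 0.13 higher. Car15, Car3, Car4 and Car13 thus each had 1 sign in both genotypes, unlike Car2, while Car1 was at 0.18 in WT and at 0.00 to 2 decimals in KO. Pck1, the gluconeogenic enzyme that also serves ammonia formation, differed by 0.17 in WT and -0.43 in KO, and by -1.24 for DM-KO minus DM-WT. Slc38a3, the glutamine transporter used in ammonia formation, was 0.30 and 0.23 higher, and Glud1, glutamate dehydrogenase, was 0.31 and 0.04 higher.

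**Figure D5:**
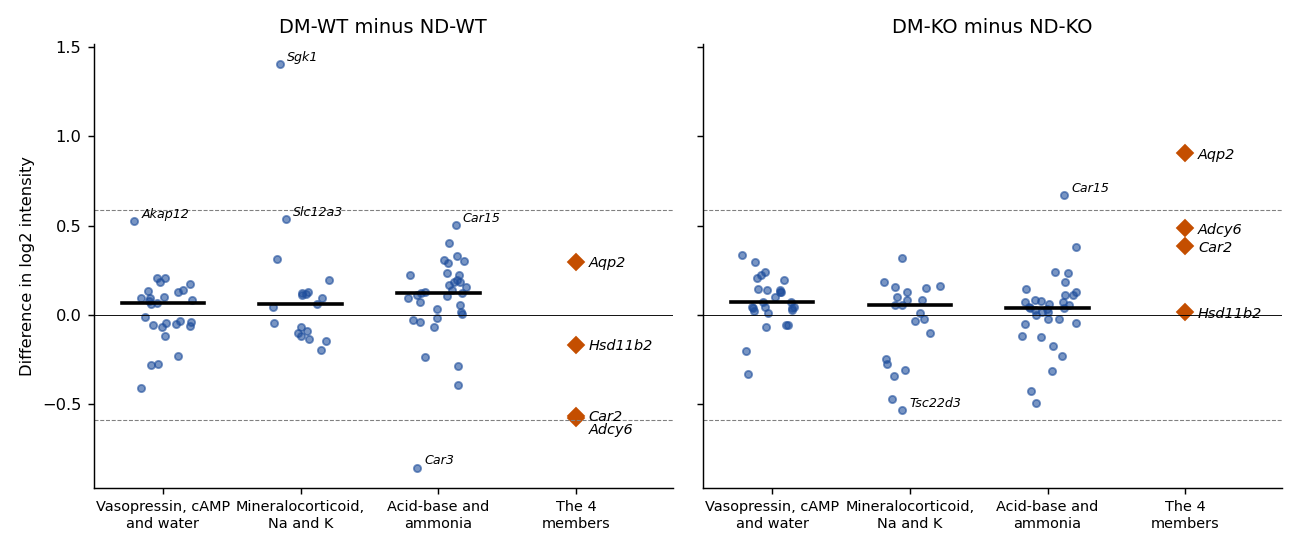
Difference in log2 intensity with diabetes for each measured gene of the 3 pathway lists (circles, black bar at the median) and for the 4 members (diamonds), in ICAM-1+/+ mice (left) and ICAM-1-/- mice (right), with dashed lines at 1.5-fold. Sgk1 and Car3 lie past the lines in WT, Car15 and Aqp2 in KO.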

How the data were processed

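Total RNA of renal cortex was hybridised to 1 array per group, scanned on an Axon GenePix 4000B and read with CodeLink Expression Analysis 2.3.2, per the labels. Scanner tables as deposited hold the mean intensity of a spot and the median of its local background, without subtraction or scaling, per the file headers. The deposited series table also holds intensity, equal to spot mean minus background divided by 1 constant per array for 100% of compared probes within 0.1%. How the authors chose the constants is unknown, its direction and scale being linear and genes not centred; column medians were 0.926 to 0.930.

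Spots were corrected with normexp (offset 50, limma 3.58.1, R 4.3.3), put on a log2 scale and normalized by quantiles. Poor spots were set to missing, and a gene was measured where a probe's spot was marked usable. Probes of a gene were averaged. Of 10032 gene probes 9201 had 1 symbol, 1 several and 830 none. Members and gene lists were chosen with earlier results of these data known. Named genes were the members, the 3 likest genes each, up to 4 genes per list with the largest diabetes differences, defining duct markers and neighbours of Aqp2; some of these are not reported here. Other genes named (Cd79a, Lag3, Furin, Ugdh, Bmp6, Tiam2, Elf5, Slc14a2, Epb42, Hba-a1, Prkar1a, Prkaca, Adcy7, Adcy9, Scnn1a, Fkbp5, Car4, Slc38a3 and Glud1) were chosen after their values were seen. The difference step was tested on simulated data. Alternatives were median scaling, an offset of 16, no background correction, the series table as log2 with a pseudocount of 1, no filter on dim probes, edge spots left out, a 2-fold threshold and, added after seeing the data, leaving out DM-WT. The number of arrays limits the precision. No p-value was computed.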

Additional observations from a re-analysis of the deposited data

Results flagged for a closer look

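For Car2 and Adcy6 the difference with diabetes had opposite signs in the 2 genotypes, and both parts exceeded the SD between spots of 1 control probe. That SD leaves out the right edge of the upper block. Car2 differed by -0.56 in WT and 0.38 in KO, so the difference in KO minus that in WT was 0.95. Adcy6 differed by -0.57 in WT and 0.48 in KO, so the difference in KO minus that in WT was 1.06. The difference between genotypes was not tested, because each group has 1 array. On DM-WT, where both genes were lowest, all 4 spots nearest Car2 in its print column were below ND-WT, from -0.86 for Bmp6 to -0.08 for Tiam2, and 1 of the 2 nearest Adcy6 was, Cd79a at -0.52 with Lag3 at 0.13. The part of print position was not tested. In the comparisons without DM-WT, both genes were below 0 for ND-KO minus ND-WT and above 0 for DM-KO minus ND-KO. Both comparisons share the ND-KO array, so a low spot there would give both signs. In DM-KO minus ND-KO the 4 spots nearest Car2 had a median of 0.25, with 3 above 0. The 2 nearest Adcy6 had a median of 0.05, with 1 above 0.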

How the results depend on the processing

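No paired analysis was possible because each group has 1 array with no replicate number. Of 104 values of the members under alternatives, 87 stayed within the SD between spots and 17 moved further. None of these 17 changed sign, but Hsd11b2 in DM-KO minus ND-KO, at 0.01, ranged from -0.03 to 0.02. Median scaling moved the values of Aqp2 to 0.054 (DM-WT minus ND-WT), 0.77 (DM-KO minus ND-KO) and 0.34 (DM-KO minus DM-WT), those of Car2 to -0.80, 0.27 and 0.69, and those of Hsd11b2 to -0.31 in the first and -0.10 in the last of these. The series table moved Aqp2 to 0.16 and 0.75 with diabetes in WT and KO, Car2 to -0.71 and 0.25, and Hsd11b2 to -0.24 in WT. An offset of 16 moved Adcy6 to -0.74 and 0.61 with diabetes in WT and KO, 0.86 between diabetic arrays and -0.49 between nondiabetic arrays, so that Adcy6 then passed 1.5-fold with diabetes in both genotypes. In WT Adcy6 also passed it under median scaling (-0.64), the series table (-0.63), no background correction (-0.60) and with edge spots left out (-0.59). Car2 passed it in WT under median scaling and the series table, and between the diabetic arrays under median scaling, an offset of 16 (0.59) and with edge spots left out (0.59).

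Over all genes, 158, 66, 112 and 38 were past 1.5-fold for DM-WT minus ND-WT, DM-KO minus ND-KO, DM-KO minus DM-WT and ND-KO minus ND-WT. With an offset of 16 the counts were 263, 115, 186 and 77, and at 2-fold 36, 12, 26 and 5. With no filter 169 differed between the diabetic arrays, 93 higher and 76 lower, against 47 and 65. For DM-WT minus ND-WT, 106 higher and 52 lower turned to 69 and 123 under median scaling and to 94 and 96 in the series table. For DM-KO minus DM-WT median scaling gave 62 and 48, and for DM-KO minus ND-KO the series table gave 29 and 50, against 34 and 32. Without DM-WT the counts were 70 for DM-KO minus ND-KO and 43 for ND-KO minus ND-WT. In the lists, an offset of 16 gave 3 acid-base genes in WT and 2 in KO in place of 1 each, and 1 water gene in WT in place of 0. Median scaling and the series table each gave 1 mineralocorticoid gene in KO in place of 0. The causes were not tested, except that a smaller offset widens differences of dim spots by construction. Dim spots limit Aqp4 and Slc14a2, which lay near background.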
